A study of Drosophila melanogaster and Drosophila simulans and Drosophila yakuba with 24 samples.

Results

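Insulin signalling in the fly begins with a family of secreted insulin-like peptides and ends, inside the receiving cell, at the transcription factor FOXO. The genes described here were chosen by name: 6 insulin-like peptide genes (Ilp2, Ilp3, Ilp5, Ilp6, Ilp7 and Ilp8), the insulin receptor gene InR, ImpL2, chico and foxo. All 10 were found among the 13898 genes of the tissue count table. All 10 also passed the filter on low counts that left 11188 genes for testing. Ilp2, Ilp3 and Ilp5 passed through their head libraries alone, so their differences from the head are given as values with no test. Ilp8 passed through its abdomen and ovary libraries, so its differences of abdomen and ovary from head and thorax are also given with no test. The libraries came from wild-type Canton S females of Drosophila melanogaster, 10 days old and mated. They covered head, thorax, eviscerated abdomen (the abdominal wall with its fat body, left after the internal organs are taken out) and ovary, with 3 biologically independent RNA-seq libraries of pooled tissue in each group. All flies were of the same genotype, sex, age and diet, so that body part was the only labelled difference.

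Insulin-like peptides are released into the hemolymph and bind the receptor tyrosine kinase InR. The receptor recruits the substrate protein Chico, which activates PI3-kinase and the kinase Akt, and Akt keeps FOXO out of the nucleus. When signalling is low, FOXO enters the nucleus and switches on genes of fasting and stress resistance, while ImpL2, a secreted binding protein, holds peptides away from the receptor. In the adult, Ilp2, Ilp3 and Ilp5 are known as products of the insulin-producing cells of the brain, Ilp6 as a fat body and glial peptide, and Ilp8 as a relaxin-like peptide that acts through the receptor Lgr3 rather than InR. The data ask where in the body each peptide transcript was found and which body parts carried most of the receiving genes.

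Levels are given as CPM, the counts scaled to the same library total with TMM factors for library composition, for comparisons of 1 gene between tissues. TPM values, which also divide by gene length, are used wherever different genes are compared. Total gene counts ran from 7884586 to 11600876 in the abdomen, 8087981 to 13630001 in the thorax, 14040598 to 19208152 in the head and 22247599 to 32498809 in the ovary, so the ovary could show the lowest levels. Unless another setting or a left-out library is named, adjusted p-values come from the edgeR quasi-likelihood test with Benjamini-Hochberg adjustment over the 11188 genes. A gene was called at an adjusted p under 0.05. Among marker genes, 5 neuronal genes summed to 4237 CPM in the head against 5.72 CPM in the ovary, and 5 muscle genes to 4315 CPM in the thorax, which also carried 5 midgut genes at 27645 CPM. The 6 fat body and oenocyte genes did not single out the abdomen, at 76619 CPM there against 108305 in the head, 109160 in the thorax and 4236 in the ovary, and the part of this in the lower abdominal levels given here was not tested. The eviscerated abdomen also carried 6 germline genes at 1216 CPM and 7 follicle cell genes at 5143 CPM, against 2347 and 12579 CPM in the ovary and at most 33.8 CPM in head and thorax. In such bulk tissue, fewer cells of a type and less RNA per cell cannot be told apart.

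Ilp2, Ilp3 and Ilp5 were transcripts of the head. Ilp2 measured 77.6, 100.1 and 91.6 CPM in the 3 head libraries and 0 in each of the other 9 libraries. The head level was at least 833-fold higher than in the thorax, at least 959-fold higher than in the abdomen and at least 3378-fold higher than in the ovary, taking 3 counts over the tissue as the floor. Behind these levels stood 1231, 1256 and 1505 counts in the head libraries.

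Ilp5 measured 49.7, 58.4 and 51.7 CPM in the head. In the thorax it had 3, 7 and 0 counts, in the abdomen 0, 2 and 1, and in the ovary none. The pooled ratio of head to thorax was 147 (95% exact counting interval 79.9 to 307), and that of head to abdomen was 565 (193 to 2741). The head was at least 2005-fold higher than the ovary.

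Ilp3 was the lowest of this trio, at 13.2, 16.6 and 21.3 CPM in the head. It had 0, 1 and 5 counts in the thorax, 2, 3 and 0 in the abdomen, and none in the ovary. The pooled head ratio was 79.3 over the thorax (36.3 to 217) and 110 over the abdomen (46.8 to 339), and the head was at least 640-fold higher than the ovary. These intervals and floors cover counting error only.

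The few Ilp3 and Ilp5 counts outside the head gave calls of thorax or abdomen over ovary, where all 3 ovary libraries were at 0 and overlapped with other libraries at 0. Ilp5 was at least 12.1-fold higher in the thorax than in the ovary, a difference that rests on 10 counts (adjusted p = 0.00064). For Ilp3 the bound was 10.1-fold on 6 counts (adjusted p = 0.0078), and that call was lost without thorax replicate 3, which held 5 of them (adjusted p = 0.10). Against the abdomen the bounds were 3.47-fold for Ilp5 on 3 counts (adjusted p = 0.032) and 5.27-fold for Ilp3 on 5 counts (adjusted p = 0.020). The Ilp5 call was lost without abdomen replicate 2 or 3 (adjusted p = 0.15 and 0.069) or without any of the 3 ovary libraries (adjusted p = 0.052 to 0.063), and the Ilp3 call without abdomen replicate 1 or 2 (adjusted p = 0.053 and 0.086). On the deposited RPKM scale with 1 added, none of these calls over the ovary was made (adjusted p = 0.13 to 0.83), and with 0.1 added only that of Ilp5 in the thorax was (adjusted p = 0.0063). Between thorax and abdomen neither gene was called (adjusted p = 0.70 for Ilp3 and 0.10 for Ilp5). The Ilp5 difference there passed without thorax replicate 3, where it had no counts (adjusted p = 0.023), with DESeq2 (adjusted p = 0.040) and with the edgeR likelihood ratio test (adjusted p = 0.039), and the sign of the Ilp3 difference turned from negative to positive without thorax replicate 3 or abdomen replicate 3 (log2 1.56 and 0.0029).

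Within the head, the proportion of Ilp2 to Ilp5 was steadier than that of Ilp2 to Ilp3. The TPM of Ilp2 over that of Ilp5 was 1.11, 1.22 and 1.26 in the 3 libraries, so Ilp2 was ahead each time. The ratio of Ilp2 to Ilp3 was 6.60, 6.77 and 4.82. By gene model, Ilp2 and Ilp3 both overlap CG32052, and Ilp5 overlaps CG43897, in the Release 6 annotation. CG43897 was at 4714 CPM in the thorax, where Ilp5 had 10 counts in all, and at 824 CPM in the head. CG32052 was at 13.5 CPM in the head and 2.55 CPM in the thorax, where Ilp2 had no counts. How reads of these pairs were assigned was not tested.

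**Figure D1:**
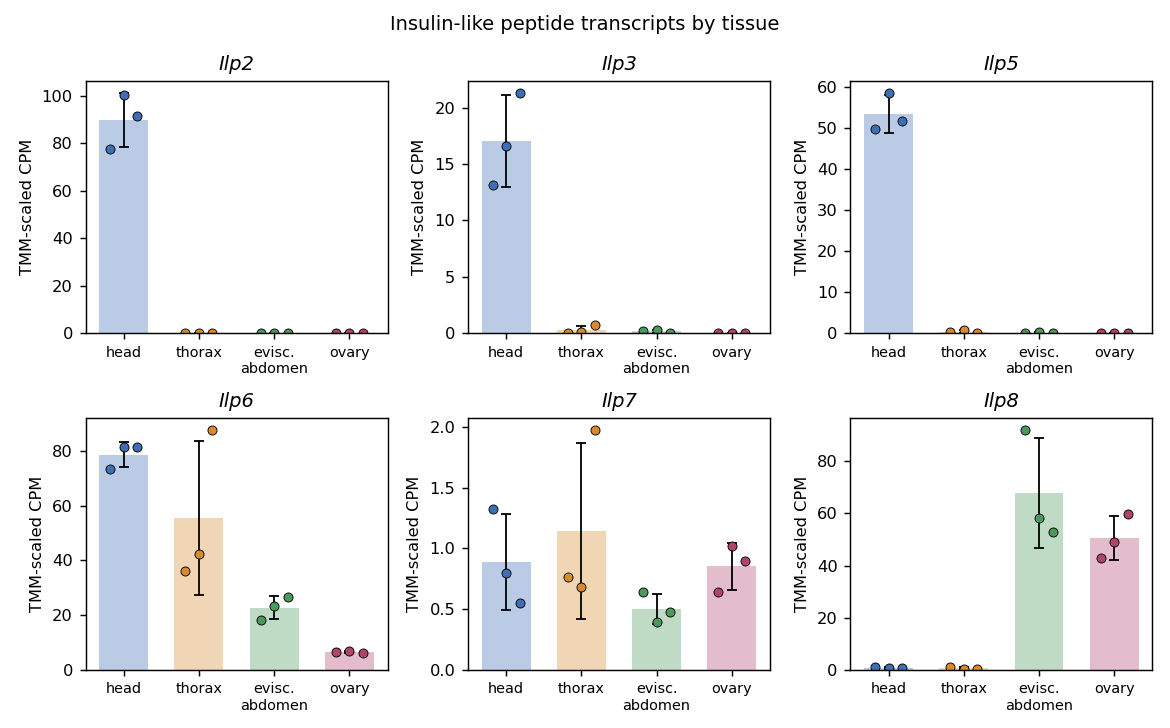
TMM-scaled CPM of the 6 insulin-like peptide genes in head, thorax, eviscerated abdomen and ovary, each on a linear axis of its own. Bars are means, error bars SD and points the 3 libraries. Ilp2 stands in the head alone, Ilp3 and Ilp5 have at most 7 counts in any library outside it, Ilp6 descends from head to ovary with thorax replicate 3 at 87.8 CPM, and Ilp8 is high only in abdomen and ovary.

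Ilp6 was the peptide transcript found in quantity in every body part. It measured 73.3, 81.3 and 81.4 CPM in the head, 36.1, 42.5 and 87.8 CPM in the thorax, 18.3, 23.2 and 26.6 CPM in the abdomen and 6.40, 6.94 and 5.99 CPM in the ovary. The levels descended from head through thorax and abdomen to ovary, with no overlap except between head and thorax. Ilp6 was 2.43-fold lower in the abdomen than in the thorax (log2 -1.28 ± 0.27 SE, adjusted p = 0.00092) and 3.47-fold lower than in the head (log2 -1.79 ± 0.27, adjusted p = 5.6e-05).

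The ovary had 12.2-fold less Ilp6 than the head (log2 -3.61 ± 0.29, adjusted p = 6.9e-08) and 3.52-fold less than the abdomen (log2 -1.82 ± 0.28, adjusted p = 7.6e-05). Head and thorax did not differ beyond their spread (log2 -0.51 ± 0.26 for thorax against head, adjusted p = 0.14). That result rested on thorax replicate 3, without which the value was log2 -0.98 (adjusted p = 0.000615), and on the deposited RPKM scale it was log2 0.35. Ilp6 shares sequence space with Raf, which was highest in the ovary at 66.2 CPM and lowest in the abdomen at 24.5 CPM. On the RPKM scale the difference between ovary and abdomen came to log2 0.16, and relative to the median of all genes on that scale it was -1.58.

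Ilp7, which is made by neurons of the ventral nerve cord, was near the limit of detection in every tissue. It had 21, 10 and 9 counts in the head, 8, 7 and 14 in the thorax, 7, 5 and 4 in the abdomen and 27, 30 and 37 in the ovary. The means were 0.89 ± 0.40 CPM in the head, 1.14 ± 0.73 in the thorax, 0.50 ± 0.12 in the abdomen and 0.85 ± 0.19 in the ovary (SD, n = 3). No comparison was called, and the adjusted p-values ran from 0.11 to 0.91. The sign of the difference between thorax and head, and of those between ovary and head and between ovary and thorax, depended on the scaling or on which library was left out. Without thorax replicate 3 the difference of thorax against head went from log2 0.31 to -0.27. On the RPKM scale with 0.1 added, 5 of the 6 differences of Ilp7 were called (adjusted p = 3.6e-06 to 0.012), with log2 0.92 for thorax against head, -1.19 for abdomen against thorax and 1.79, 0.88 and 2.07 for the ovary against head, thorax and abdomen. Ilp7 overlaps Parg, which was at 8.80 CPM in the thorax and 36.3 CPM in the ovary.

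Ilp8 had the opposite distribution to the brain peptides. It measured 92.1, 58.4 and 53.0 CPM in the abdomen and 42.8, 48.9 and 59.6 CPM in the ovary, against 1.01, 0.56 and 0.55 CPM in the head and 1.05, 0.29 and 0.28 CPM in the thorax. Every abdomen and ovary library was far above every head and thorax library. Ilp8 was 94.5-fold higher in the abdomen than in the head (log2 6.56) and 117-fold higher than in the thorax (log2 6.88).

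In the ovary, Ilp8 was 70.2-fold above the head (log2 6.13) and 87.3-fold above the thorax (log2 6.45). Abdomen and ovary overlapped and did not differ beyond their spread (log2 -0.43 ± 0.25 for ovary against abdomen, adjusted p = 0.14), although with upper quartile factors the difference was called (log2 -0.67, adjusted p = 0.046). The sign of that difference turned on the deposited RPKM scale, to log2 1.57, which was -0.17 relative to the median of all genes on that scale. Head and thorax were both near the limit of detection and were not called (adjusted p = 0.69).

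The ovarian markers in the eviscerated abdomen were set beside the abdominal Ilp8. As a percentage of the ovary mean, the 6 germline genes stood at 19.6% to 70.7% in the abdomen and the 7 follicle cell genes at 19.9% to 67.1%, taking the mean of the 3 abdomen libraries for each gene. Ilp8 stood at 183%, 116% and 105% in abdomen replicates 1, 2 and 3, above each of the 13 markers in the same library. Divided by each marker in turn within a library, Ilp8 was 2.36-fold to 7.03-fold higher in the abdomen than in the ovary, with no overlap between libraries. These ratios largely follow from the percentages above and are no separate result. The margin was narrowest for osk, where the lowest abdomen ratio was 0.0528 and the highest ovary ratio 0.0526. The 13 markers were measured in the same libraries and are not independent of each other. The part of ovarian tissue in the abdominal Ilp8 was not tested. Abdomen replicate 1 had the highest Ilp8 of the 3 and the lowest sum of germline markers (673 CPM, against 1612 and 1361 in replicates 2 and 3). Its sum of follicle cell markers was also the lowest (4264 CPM, against 6121 and 5043). The median follicle cell marker, however, stood at 38.8%, 48.5% and 36.3% of the ovary in replicates 1, 2 and 3, lowest in replicate 3. Ilp8 overlaps CG7730, which was at 35.2 CPM in the abdomen, 43.9 in the ovary and at most 2.31 in head and thorax, and whether reads were assigned by strand is not given in the sources used here, so that reads of the pair may not be told apart.

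**Figure D2:**
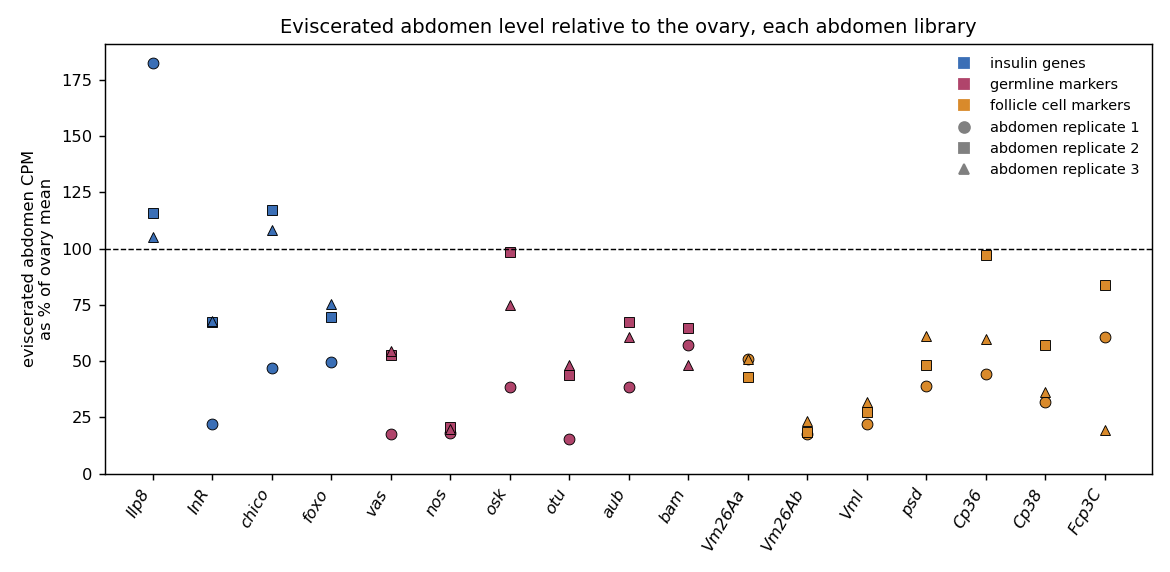
Level in each eviscerated abdomen library as a percentage of the mean of the 3 ovary libraries (vertical axis, from 0), for Ilp8, InR, chico and foxo and for 6 germline and 7 follicle cell markers. Circles, squares and triangles are abdomen replicates 1, 2 and 3, and the dashed line marks the ovary level. Ilp8 lies above the line in all 3 libraries, whereas every marker lies below it.

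Taken per gene length, the leading peptide was Ilp2 in the head, Ilp6 in the thorax and Ilp8 in both abdomen and ovary. The 8 Ilp genes together, with Ilp1 and Ilp4 added, summed to 607 TPM in the head, 42.0 in the thorax, 128 in the abdomen and 127 in the ovary. In the head, Ilp2 made up 43.7% of this sum (42.0% to 45.3% over libraries), Ilp5 36.5%, Ilp6 10.7% and Ilp3 7.38%. In the thorax, Ilp6 made up 86.4% (83.0% to 91.3%).

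In the abdomen Ilp8 led with 87.0% (83.1% to 91.9%), and Ilp6 followed with 11.3%. In the ovary Ilp8 reached 94.2% (93.6% to 95.3%) and Ilp6 4.41%. The leading peptide of a tissue was thus the same in all of its 3 libraries. Of the remaining peptides, Ilp1 was detected mainly in the head (62 counts, 1.33 ± 0.60 CPM, SD, n = 3), with 3 counts each in thorax and ovary and none in the abdomen. Ilp4 was at 0.65 ± 0.82 CPM in the head and 0.52 ± 0.25 in the abdomen, and neither gene passed the filter on low counts.

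**Figure D3:**
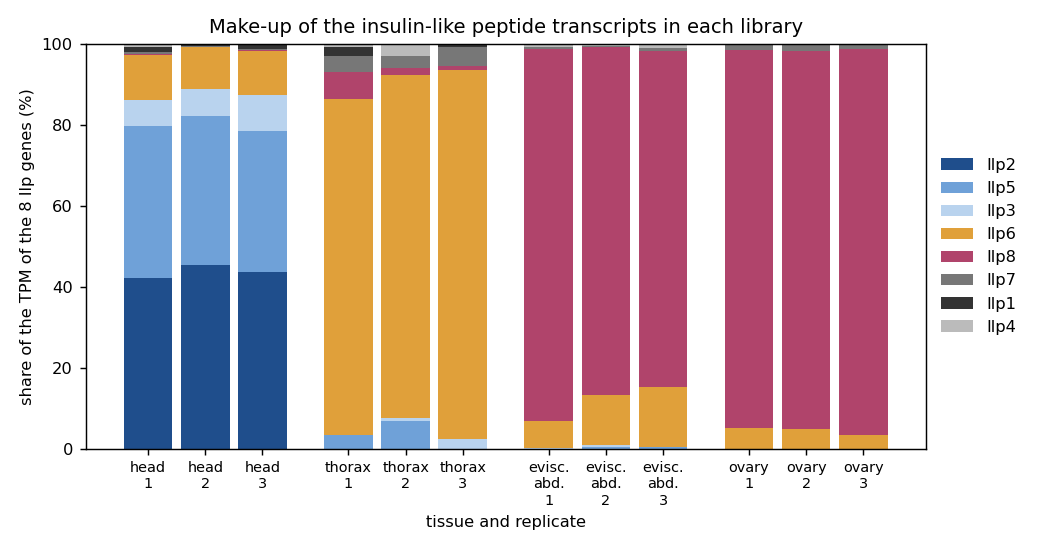
Share of each gene in the summed TPM of the 8 Ilp genes (vertical axis, percent) for each of the 12 libraries. Ilp2 with Ilp5 and Ilp3 fill most of the head bars, Ilp6 fills 83.0% to 91.3% of the thorax bars, and Ilp8 fills 83.1% to 95.3% of the abdomen and ovary bars.

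ImpL2, the secreted antagonist of insulin-like peptides, had its highest mean CPM in the thorax, although the excess over the head was not called. Its mean TPM was 179 in the thorax and 173 in the head. It measured 201, 257 and 241 CPM in the head, 294, 320.4 and 309 CPM in the thorax, 107, 166 and 125 CPM in the abdomen and 83.4, 75.2 and 77.9 CPM in the ovary. The 4 tissues did not overlap in any pair. ImpL2 was 2.32-fold lower in the abdomen than in the thorax (log2 -1.22 ± 0.17, adjusted p = 2.9e-05) and 1.76-fold lower than in the head (log2 -0.81 ± 0.17, adjusted p = 0.00076).

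The ovary had the least ImpL2, 3.91-fold below the thorax (log2 -1.97 ± 0.17, adjusted p = 1.9e-07), 2.95-fold below the head (log2 -1.56 ± 0.17, adjusted p = 1.6e-06) and 1.68-fold below the abdomen (log2 -0.75 ± 0.17, adjusted p = 0.0016). The last pair of these differences turned positive on the RPKM scale (log2 0.72 against the head and 1.24 against the abdomen), where they were -1.23 and -0.50 relative to the median of all genes. The excess of thorax over head was not called (log2 0.40 ± 0.17, adjusted p = 0.072). It passed when abdomen replicate 1 or 2 was left out (log2 0.42 and 0.43) or any ovary library (log2 0.63 each time), with adjusted p-values from 0.013 to 0.038. It also passed with DESeq2 (log2 0.44, adjusted p = 0.0089), upper quartile factors (0.56, 0.0079), only these tissues in the fit (0.55, 0.0056) and on the RPKM scale with 0.1 or 1 added (1.37 and 1.33, 0.00047 and 0.00043).

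InR, the only member that encodes a receptor, had its highest mean CPM in the head and its lowest in the abdomen. Thorax replicate 3 was above every head library. It measured 107, 112 and 109 CPM in the head, 62.7, 70.5 and 143 CPM in the thorax, 13.8, 41.8 and 42.0 CPM in the abdomen and 69.9, 55.2 and 61.0 CPM in the ovary. The abdomen overlapped with no other tissue. InR was 3.36-fold lower there than in the head (log2 -1.75 ± 0.37, adjusted p = 0.00089) and 2.82-fold lower than in the thorax (log2 -1.50 ± 0.37, adjusted p = 0.0028).

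The ovary stood 1.76-fold below the head (log2 -0.81 ± 0.36, adjusted p = 0.049), a call at the edge of the threshold. It was lost when any 1 of 10 of the 12 libraries was left out, that is all but thorax replicate 3 and abdomen replicate 1 (log2 -0.83 to -0.43, adjusted p = 0.055 to 0.35), and the difference turned to log2 1.42 on the RPKM scale (-0.53 relative to the median of all genes). The call was also lost with library size as the only scaling (log2 -0.30, adjusted p = 0.48) and with no filter (-0.71, 0.066). The ovary was 1.91-fold above the abdomen (log2 0.93 ± 0.37, adjusted p = 0.038). Without abdomen replicate 1 this became log2 0.58 (adjusted p = 0.078), and without ovary replicate 1 log2 1.02 (adjusted p = 0.050), both short of the threshold, as it was with upper quartile factors (log2 0.74, adjusted p = 0.085) and with only these tissues in the fit (0.86, 0.077).

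Neither thorax against head (log2 -0.25 ± 0.36, adjusted p = 0.60) nor ovary against thorax (log2 -0.56 ± 0.36, adjusted p = 0.16) was called for InR, and both differences were positive on the RPKM scale (log2 0.60 and 0.82, or -0.13 and -0.32 relative to the median of all genes). Ovary against thorax passed without abdomen replicate 1 (log2 -0.54, adjusted p = 0.046) and with DESeq2 (log2 -0.90, adjusted p = 0.024). InR overlaps the non-coding genes lncRNA:Irar and lncRNA:CR44034.

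Chico, the substrate that links the receptor to PI3-kinase, was higher in head and thorax than in abdomen and ovary in CPM. It measured 72.7, 80.4 and 87.1 CPM in the head and 75.1, 83.4 and 86.5 CPM in the thorax, against 21.5, 53.7 and 49.7 CPM in the abdomen and 46.5, 43.4 and 47.8 CPM in the ovary. Head and thorax overlapped fully and were not called (log2 0.03 ± 0.25, adjusted p = 0.94), nor were ovary and abdomen (log2 0.14 ± 0.25, adjusted p = 0.63). Both were called on the RPKM scale with 0.1 added, at log2 0.98 for thorax against head (adjusted p = 0.014) and 2.18 for ovary against abdomen (adjusted p = 6.4e-06), or 0.25 and 0.44 relative to the median of all genes. The sign of the ovary to abdomen difference turned without abdomen replicate 1 (log2 -0.16), and that of thorax to head without head replicate 1 (log2 -0.04) and with library size as the only scaling (log2 -0.14).

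Chico was 1.92-fold lower in the abdomen than in the head (log2 -0.94 ± 0.25, adjusted p = 0.0042) and 1.96-fold lower than in the thorax (log2 -0.97 ± 0.25, adjusted p = 0.0038). The ovary was 1.74-fold below the head (log2 -0.80 ± 0.25, adjusted p = 0.0087) and 1.78-fold below the thorax (log2 -0.83 ± 0.25, adjusted p = 0.0075). On the RPKM scale the ovary differences became log2 1.46 and 0.48, which were -0.49 and -0.66 relative to the median of all genes. The call against the head was lost without any of the 3 ovary libraries (log2 -0.52, -0.46 and -0.56, adjusted p = 0.11, 0.15 and 0.0879). With library size as the only scaling, the calls of the ovary against head and thorax were both lost (log2 -0.29 and -0.14, adjusted p = 0.32 and 0.62). The gene chico overlaps an antisense gene, asRNA:CR44995.

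foxo was highest in the thorax and lowest in the abdomen. It measured 149, 136 and 138 CPM in the thorax, 93.4, 103 and 107 CPM in the head, 84.3, 77.2 and 76.8 CPM in the ovary and 39.6, 55.3 and 59.8 CPM in the abdomen. No tissue overlapped with another, and no other gene overlaps foxo in the annotation. foxo was 2.74-fold lower in the abdomen than in the thorax (log2 -1.45 ± 0.16, adjusted p = 2.5e-06) and 1.96-fold lower than in the head (log2 -0.97 ± 0.16, adjusted p = 8.0e-05).

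The ovary was 1.54-fold above the abdomen (log2 0.62 ± 0.15, adjusted p = 0.0028) and 1.78-fold below the thorax (log2 -0.83 ± 0.15, adjusted p = 0.00021). The thorax was 1.40-fold above the head (log2 0.48 ± 0.15, adjusted p = 0.023), a call lost without head replicate 1 (log2 0.42, adjusted p = 0.079), head replicate 2 (0.50, 0.054) or thorax replicate 1 (0.46, 0.064), and with library size as the only scaling (0.30, 0.15). Ovary and head were near each other (log2 -0.35 ± 0.15, adjusted p = 0.047), and this call was lost when any of 10 libraries was left out, all but head replicate 1 and abdomen replicate 1 (log2 -0.31 to -0.02, adjusted p = 0.086 to 0.90). It was also lost with the replicate number as a block (log2 -0.34, adjusted p = 0.071), with no filter (-0.25, 0.18) and with only these tissues in the fit (-0.13, 0.18). With library size as the only scaling the ovary to head difference was log2 0.17, and on the RPKM scale 1.91. Relative to the median of all genes it was -0.10 in the main fit and -0.04 on the RPKM scale with 0.1 added. In those fits foxo differed between ovary and head about as much as the median gene did. Over the settings with all libraries kept it ran from -0.20 to 1.03. The highest value came with no filter, where the median of all genes was -1.27. The ovary to thorax difference was log2 0.48 on the RPKM scale, or -0.66 relative to that median, and its call was lost with library size as the only scaling (log2 -0.14, adjusted p = 0.44).

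**Figure D4:**
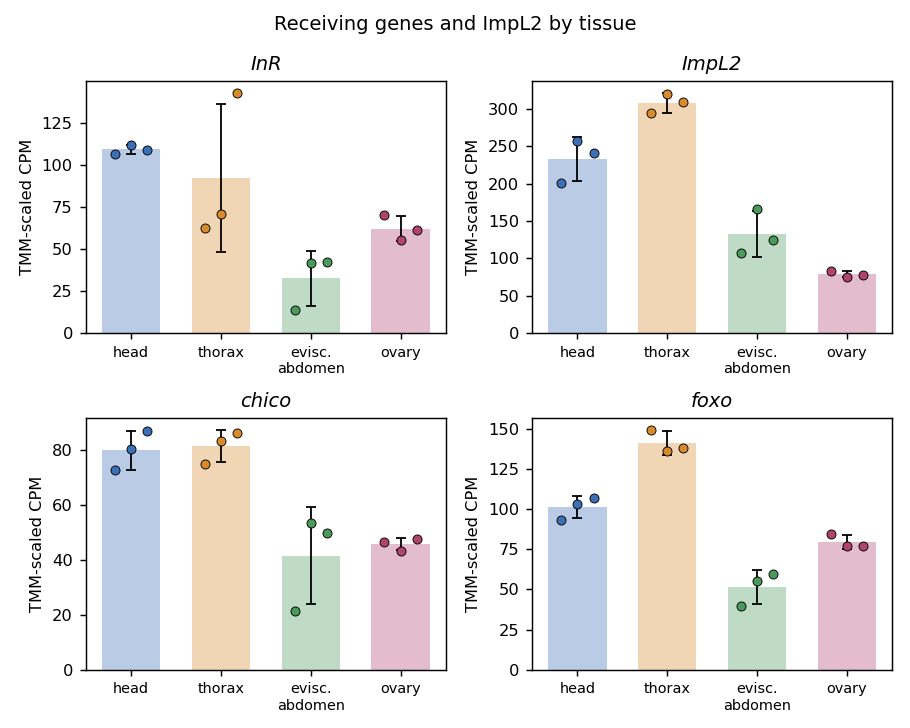
TMM-scaled CPM of InR, ImpL2, chico and foxo in the 4 tissues, each on a linear axis of its own. Bars are means, error bars SD and points the 3 libraries. All 4 genes are lower in the eviscerated abdomen than in head and thorax, and thorax replicate 3 for InR (143 CPM) and abdomen replicate 1 for InR and chico (13.8 and 21.5 CPM) stand apart from their groups.

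InR, chico, foxo, ImpL2 and Ilp6 were each called lower in the eviscerated abdomen than in both head and thorax, where 39.2% and 36.9% of all genes were called lower. Those shares are of each comparison alone, and the share of all genes lower in both was not computed. These 5 are the members with this pattern, so the count over them is a description. The direction of the 10 differences was the same under every alternative tried, and 7 of the 10 kept their call under all of them. The exceptions were chico against the thorax, lost with library size as the only scaling (adjusted p = 0.078), and ImpL2 and chico against the head, lost on the RPKM scale (adjusted p = 0.099 and 0.062 at the highest). InR and chico were lowest in abdomen replicate 1, where the sums of germline and of follicle cell markers were also lowest. The part of the germline and follicle cell transcripts in the abdominal levels was not tested.

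**Figure D5:**
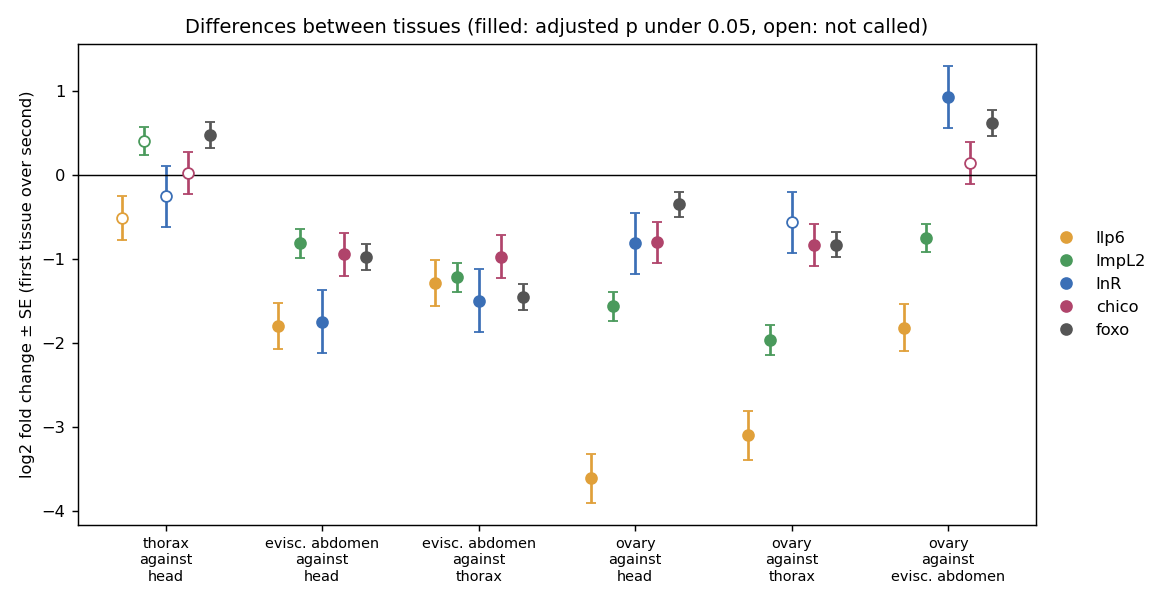
Log2 fold change with its SE (vertical axis, first tissue over second) of Ilp6, ImpL2, InR, chico and foxo in the 6 comparisons between tissues. Filled points had an adjusted p under 0.05 in the edgeR quasi-likelihood test and open points did not. All 10 points for the abdomen against head or thorax are filled and below 0, from -0.81 to -1.79.

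Compared within a library, where scaling between tissues plays no part, the receiving genes were not in a fixed proportion. The TPM of InR over that of chico was 0.58, 0.55 and 0.49 in the head, 0.59, 0.50 and 0.50 in the ovary and 0.25, 0.31 and 0.33 in the abdomen, with the abdomen below both. In the thorax it was 0.33 in replicates 1 and 2 and 0.65 in replicate 3. Per gene length, InR was thus the lower of the pair in all 12 libraries.

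The ratio of ImpL2 to Ilp6 in TPM was 2.48, 2.86 and 2.68 in the head and 11.8, 9.80 and 11.8 in the ovary. It was 7.37, 6.82 and 3.19 in the thorax and 5.27, 6.48 and 4.23 in the abdomen, between the other 2 tissues in every library. ImpL2 was the more abundant transcript of the pair in all 12 libraries.

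Thorax replicate 3, the library with the fewest counts of its tissue, held the highest InR and Ilp6 of any thorax library. InR was 1.10 and Ilp6 1.15 higher on the log2 scale there than the mean of the other thorax libraries, above 96.5% and 97.0% of the genes tested. Ilp3 (1.14) and Ilp7 (1.02) were also higher in that library, and Ilp5 (-0.95) and Ilp8 (-0.50) lower, all on few counts. Chico (0.13), ImpL2 (0.01) and foxo (-0.05) did not move with InR and Ilp6. Among genes known as FOXO targets, Thor was at -0.18, Sesn at -0.28, bmm at 0.29 and Lip4 at 0.36 in the same library. In abdomen replicate 1, InR stood -1.57 and chico -1.25 on the log2 scale below the mean of the other abdomen libraries, and 0.81% and 3.20% of the genes tested were lower still.

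Counted over the 10 members, thorax against head gave 1 higher and 3 lower calls, where 41.9% of all genes tested were called in either direction and 25.4% lower. The eviscerated abdomen against the head gave 1 higher and 8 lower, with 75.0% of all genes called, and against the thorax 1 higher and 5 lower, with 72.4% called. The ovary against the head gave 1 higher and 8 lower, with 85.8% of all genes called. The ovary against the thorax gave 1 higher and 6 lower (84.0% of all genes called), and against the abdomen 2 higher and 4 lower (68.5% of all genes called). Ilp2, Ilp3 and Ilp5, which passed the filter through the head alone, make up 3 of the lower calls in each comparison with the head, and so all of those for the thorax. Ilp3 and Ilp5 are also among the lower calls of the ovary against thorax and against abdomen, on few counts. With such backgrounds, a call as such says little about a member. Of all genes, 39.2% were called lower in the abdomen than in the head and 46.4% lower in the ovary than in the head. Of the 10 members 8 were lower in each, but 3 of these are the genes that passed the filter through the head alone. Higher calls made up 39.3%, 40.3% and 32.6% of all genes in the ovary against head, thorax and abdomen, beside 1, 1 and 2 of the 10 members. Ilp8 was the 1 higher call in 4 of the 6 comparisons, all those of abdomen or ovary against head or thorax, and foxo that of thorax against head. The Ilp8 calls are counted here although it passed the filter through its abdomen and ovary libraries.

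The median log2 fold change of the members was -0.28 for thorax against head, -1.36 for abdomen against head, -1.17 for abdomen against thorax, -1.19 for ovary against head, -0.83 for ovary against thorax and -0.21 for ovary against abdomen. The medians of all genes in the same order were -0.17, -0.08, -0.08, -0.25, -0.11 and -0.01. The member medians were the same with transcripts at 0 held at their bound. They include Ilp2, Ilp3 and Ilp5, which passed the filter through the head alone, and Ilp8, which passed it through abdomen and ovary. Ilp2 had no counts in thorax, abdomen or ovary and so counts as not called between them.

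The remaining pathway genes were taken from a list of 38, of which 36 were matched and 34 passed the filter, and susi and PRAS40 were not analysed here. In the abdomen, 22 were lower and 2 higher than in the head, and 21 were lower and 4 higher than in the thorax. In the ovary, 19 were lower and 9 higher than in the head, 18 lower and 10 higher than in the thorax, and 8 lower and 14 higher than in the abdomen. Thorax against head gave 7 lower and 2 higher. Of all genes, 39.2% were lower and 35.8% higher in the abdomen than in the head, 36.9% and 35.5% than in the thorax, 46.4% and 39.3% in the ovary than in the head, 43.7% and 40.3% than in the thorax, 35.9% and 32.6% than in the abdomen, and 25.4% and 16.5% in the thorax than in the head. These shares are also the background of the counts by role that follow. The list medians were -0.79 for abdomen against head, -0.65 for abdomen against thorax, -0.99 for ovary against head, -0.47 for ovary against thorax and -0.05 for thorax against head on the log2 scale. For ovary against abdomen the median was 0.32, or 0.27 with transcripts at 0 held at their bound. On the RPKM scale with 0.1 added, where the median of all genes was 1.95 for ovary against head and 0.73 for thorax against head, the list turned to 24 higher and 7 lower in the ovary than in the head and to 22 higher and 2 lower in the thorax than in the head, whereas 13 stayed lower and 4 were higher in the abdomen than in the head. In the ovary against the thorax it was 18 higher and 9 lower on that scale, and 15 each way with library size as the only scaling.

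Among secreted modulators and relaxin-type receptors, all 4 tested genes (Sdr, conv, Lgr3 and Lgr4) were lower in the abdomen and in the ovary than in the head, although on the RPKM scale with 0.1 added 3 were higher and 1 lower in the ovary, and 2 were lower there with library size as the only scaling. Lgr3, the Ilp8 receptor, was at 2.98 ± 1.64 CPM in the head, 0.42 ± 0.12 in the thorax, 1.20 ± 0.25 in the abdomen and 1.42 ± 0.04 in the ovary (SD, n = 3), and was 6.94-fold lower in the thorax than in the head (adjusted p = 0.00077). The TPM of Ilp8 over that of Lgr3 was 155 to 219 in the abdomen and 102 to 150 in the ovary, against 0.73 to 1.21 in the head. Lgr4, a related receptor, was at 3.87 ± 1.28 CPM in the head and 3.18 ± 0.97 in the thorax but 0.10 ± 0.02 in the ovary, 37.2-fold lower than in the head (adjusted p = 2.5e-06).

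Of 6 receptor adaptor and PI3-kinase genes tested, all 6 were higher in the ovary than in the abdomen, 4 were higher than in the thorax and 3 higher than in the head. None was called lower than in head or thorax, and 1 was lower than in the head with DESeq2 and with upper quartile factors. The adaptor gene dock was at 78.6 ± 9.5 CPM in the head and 28.4 ± 8.2 in the abdomen, 2.77-fold lower (adjusted p = 1.4e-05).

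Of 6 kinase and TORC2 genes downstream of PI3-kinase, 5 were lower in the abdomen than in the head and 5 lower than in the thorax. With library size as the only scaling 4 and 2 were lower, and on the RPKM scale with 0.1 added 2 and 6. The gene sgg, which encodes the fly GSK3 kinase, fell from 637 ± 36 CPM in the head to 123 ± 4 in the ovary, 5.18-fold (adjusted p = 3.3e-08), a difference of log2 -2.37 that was -0.09 and not called on the RPKM scale with 0.1 added (adjusted p = 0.75). The TORC2 subunit gene rictor was at 115 ± 15 CPM in the ovary and 28.3 ± 9.3 in the abdomen, 4.08-fold higher in the ovary (adjusted p = 3.7e-06).

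In the TORC1 branch, none of 7 genes was called between thorax and head, whereas all 7 were higher in the thorax on the RPKM scale. Lst8, a TOR complex subunit gene, was at 56.5 ± 0.9 CPM in the ovary and 48.8 ± 3.8 in the abdomen against 16.6 ± 2.3 in the thorax, 3.40-fold higher in the ovary than in the thorax (adjusted p = 3.5e-08). REPTOR, a transcription factor gene restrained by TORC1, was at 345.5 ± 18.1 CPM in the head and 100.3 ± 6.1 in the ovary, 3.45-fold lower (log2 -1.78, adjusted p = 3.8e-07), a difference that came to log2 0.49 on the RPKM scale with 0.1 added, not called (adjusted p = 0.092).

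All 4 FOXO target genes were lower in the ovary than in head and thorax, although on the RPKM scale 3 of them were higher in the ovary than in the head and only 1 was lower than in the thorax. Thor, the 4E-BP translation inhibitor, was at 442 ± 41 CPM in the thorax, 255 ± 59 in the abdomen, 195 ± 17 in the head and 27.4 ± 1.8 in the ovary, and was 16.1-fold lower in the ovary than in the thorax (adjusted p = 5.8e-10). Sesn, the stress-response gene sestrin, was 4.36-fold lower in the abdomen than in the thorax (48.9 ± 12.7 against 213 ± 26 CPM, adjusted p = 5.5e-07). The targets did not move as a block, since bmm, a triglyceride lipase gene, was higher in the abdomen than in the thorax (212 ± 7 against 129 ± 15 CPM, log2 0.72, and 0.06 and not called on the RPKM scale), while Thor and Sesn were lower there.

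Of the signals to and from the insulin-producing cells, all 7 genes were lower in the ovary than in head and thorax, although on the RPKM scale with 0.1 added 1 of them was higher in the ovary than in the head. The neuropeptide gene sNPF was at 141 ± 17 CPM in the head, 34.8 ± 7.6 in the thorax, 0.18 ± 0.32 in the abdomen and 0 in each ovary library, so that the head was at least 5306-fold higher than the ovary. CCHa2, a peptide gene of the fat body and gut, was at 319 ± 117 CPM in the abdomen, 286 ± 41 in the head and 214 ± 27 in the thorax against 0.93 ± 0.16 in the ovary, 338-fold lower than in the abdomen (adjusted p = 5.1e-10).

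The genes most like each member across the 12 libraries were ranked by Pearson's r of log2-scaled levels, as a description over 4 tissues. Ilp2 was closest to the rhodopsin gene Rh3, CG13670 and Gbeta76C (r = 0.9995 to 0.9998), Ilp5 to CG9759, CG9072 and the rhodopsin gene ninaE (r = 0.9970 to 0.9973) and Ilp3 to CG7829, Cpn and inaC (r = 0.9936 to 0.9948), where Gbeta76C and inaC are photoreceptor genes. Ilp8 was closest to l(2)k10201, SNRPG and the chorion gene Cp15 (r = 0.9960 to 0.9967). Ilp6 was closest to CG14961, rgn and DIP-epsilon (r = 0.984 to 0.986), and Ilp7 had the weakest neighbours, obst-H, Cyp6d2 and CG12012 (r = 0.774 to 0.836). ImpL2 was closest to the receptor tyrosine kinase gene Pvr, Lk6 and klu (r = 0.989 to 0.991), InR to Pak, LRR and arr (r = 0.963 to 0.966), chico to tud, kibra and Vrp1 (r = 0.977 to 0.989) and foxo to baz, CG9171 and mfrn (r = 0.985 to 0.990).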

How the data were processed

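RNA-seq was analysed from 12 wild-type tissue libraries, 3 each of head, thorax, eviscerated abdomen and ovary, grouped by the tissue label. Libraries were made from total RNA after depletion of ribosomal RNA. Per the methods of the study, reads were mapped to dm3 with Tophat and counted by gene model with easyRNASeq. The strand setting is not given in the sources used here. The deposited counts are raw reads per gene, and the deposited RPKM values were calculated by the authors from the same counts. Library totals of the RPKM values did not follow those of the counts, so TPM was computed here as RPKM over the library sum. Deposited fold changes and p-values of the authors were not used, nor were the piwi mutant, small RNA and repeat tables, which list no genes. The gene tables hold no column for the piwi mutant fat body samples, which were not analysed here.

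Counts were tested with edgeR 4.0.16 (filterByExpr, TMM on the filtered genes, glmQLFit and glmQLFTest, 1 fit over 12 libraries with tissue as the only term) in R 4.3.3, with Benjamini-Hochberg adjustment over 11188 genes, and the script was tested on simulated data. The study corrected for batches that it does not name, so no batch term was used. Alternatives were DESeq2 1.42.0, a likelihood ratio test, library size or upper quartile scaling, other filters, only the tissues compared, limma 3.58.1 on log2(RPKM + 0.1) and log2(RPKM + 1), a replicate block and leaving out each library. Same-numbered libraries did not deviate together. Of the 13898 gene IDs, 13376 were matched to a symbol, and overlapping genes were taken from the Release 6 annotation, with no coordinates carried over. Bounds against tissues at 0 used a floor of 3 counts over the tissue, and intervals are exact at 95%. Every member was described. In the other pathway genes, the 2 with the largest called difference in each role were named, with Ilp1, Ilp4 and Thor, and bmm was named after its values were seen. The values of 1 gene so chosen are not reported here. The 3 genes with the highest Pearson's r to each member were named, on log2(TMM-scaled CPM + 0.5). Members and lists were chosen with earlier results of these data known.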

Additional observations from a re-analysis of the deposited data

How the results depend on the processing

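Of 1244 alternative values for 57 results, 1106 kept their direction and side of the threshold, 59 lost the call, 26 gained it and 53 changed direction. The deposited RPKM scale, in the fits with 0.1 and with 1 added, accounted for 30 of the 53. Its all-gene medians were 1.95 and 1.59 for ovary against head, 1.14 and 0.92 for ovary against thorax, 1.74 and 1.43 for ovary against abdomen, and 0.73 and 0.51 for thorax against head. On it, in that order of added value, ovary against head gave ImpL2 0.72 and 0.69, InR 1.42 and 1.18, chico 1.46 and 1.31, foxo 1.91 and 1.75, and Ilp7 1.79 and 0.67. Ovary against thorax gave InR 0.82 and 0.70, chico 0.48 and 0.44, foxo 0.48 and 0.46, and Ilp7 0.88 and 0.38. Ovary against abdomen gave ImpL2 1.24 and 1.19, Ilp8 1.57 and 1.53, and Ilp6 0.16 and 0.12. Thorax against head gave InR 0.60 and 0.48, Ilp8 0.30 and 0.11, and Ilp6 0.35 and 0.31.

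With library size as the only scaling, the differences that changed direction were chico in thorax against head (-0.14), foxo and Ilp7 in ovary against head (0.17 and 0.42), and InR and Ilp7 in ovary against thorax (0.094 and 0.28). Upper quartile factors turned chico in ovary against abdomen (-0.052), and Ilp7 in ovary against head turned with no filter (0.043) and with only the tissues compared (0.14). Leaving out single libraries also changed the direction of chico (-0.040 to 0.26), Ilp8 (-1.26 to 0.063) and Ilp7 (-0.27 to 0.72) in thorax against head, Ilp3 in abdomen against thorax (-1.11 to 1.56), Ilp7 in ovary against head (-0.29 to 0.38) and ovary against thorax (-0.59 to 0.24), and chico in ovary against abdomen (-0.16 to 0.39). The causes were not tested.

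The number of members called was 7 for thorax against head with 0.1 added to RPKM, where it was 4 in the main fit, and 3 for ovary against abdomen with only those tissues in the fit, where it was 6. With single libraries left out it ran from 3 to 5 for thorax against head, 9 to 9 for abdomen against head, 6 to 7 for abdomen against thorax, 6 to 9 for ovary against head, 6 to 8 for ovary against thorax and 4 to 6 for ovary against abdomen. On the RPKM scale with 0.1 added the member calls were 6 higher and 4 lower for ovary against head, and 6 higher and 0 lower for ovary against abdomen. The share of higher calls among all genes called moved from 45.9% to 69.2% for ovary against head, from 48.0% to 64.8% for ovary against thorax, from 47.6% to 80.7% for ovary against abdomen, from 49.0% to 29.0% for abdomen against thorax and from 39.3% to 82.5% for thorax against head. With library size alone it was 60.7%, 58.5% and 27.1% for abdomen against thorax, ovary against thorax and thorax against head, and upper quartile factors and the fit of only the tissues compared gave 51.2% and 50.5% for thorax against head.

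Replicate numbers did not pair the libraries. Deviations of same-numbered libraries correlated between -0.18 and 0.16, over 0.1 in 2 of 18 pairs. With the replicate block, 8 members were called for ovary against head in place of 9, the call of foxo being lost (adjusted p = 0.071), and the other 5 comparisons gave the counts of the main fit (4, 9, 6, 7 and 6). Depth limited Ilp7, at 4 to 37 counts a library, and Ilp3 and Ilp5 outside the head, at 0 to 7.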
